A study of Mus musculus with 12 samples.

Results

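Internal alternative promoters are transcription start sites (TSSs) that lie well downstream of the first start of a gene, so that a shorter or differently begun transcript is made from the same locus. To collect them, protein-coding transcripts of autosomal protein-coding genes were taken from the mouse annotation (GENCODE release M21, GRCm38), and a TSS was kept when it lay more than 5 kb inside the gene from its 5′ end and more than 5 kb from the 5′ end of every other gene. Of 56288 transcripts of 20722 genes, 9042 transcripts of 4338 genes met this rule. Windows of 1 kb on either side of their 8440 distinct TSSs, merged where they overlapped within a gene, gave 6228 internal windows. The whole table that was scored held 57457 windows, namely these and the 5′ ends of all autosomal genes. A single internal window was found in 3160 genes and several in 1178 genes. *Pde4d* and *Ttn* had the most, with 10 windows each, followed by *Macf1* with 9 and by *Ank3* and *Epb41l2* with 8. The median distance of a window from the 5′ end of its gene was 27.4 kb, and the longest was 2861 kb. In 3908 windows at least 1 transcript had a complete annotated start, whereas the remaining 2320 windows held only transcripts that the annotation marks as truncated at the 5′ side, so that their first base need not be a true start.

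Many neuronal genes use internal promoters to make proteins with another amino terminus or to place the same protein under another control region. Neurexins are a textbook case, as their long alpha forms start at the 5′ end and their short beta forms at an internal promoter, and *Bdnf* carries a series of alternative first exons in front of a common coding exon. Acetylation of histone H4 at lysine 12 (H4K12ac) is a mark of nucleosomes near active starts, and TIP60 (KAT5) is a lysine acetyltransferase that acts on histone H4.

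H4K12ac ChIP-Seq of FACS-sorted neuronal nuclei from whole hippocampus was available for 5 *Tip60* cKO and 5 control libraries, labelled as male C57BL/6J of 3 months. Neither the labels nor the methods give the number of animals behind a library, so p-values measure the spread between libraries, which may be technical. All mice carried the floxed *Tip60* gene and received tamoxifen from 8 weeks of age, and only *Tip60* cKO mice carried the CaMKCreERT2 driver, which deletes the gene in postmitotic excitatory neurons of the forebrain. Nuclei were obtained at day 10 after the last injection, and the sort also kept neurons in which the driver is not active. Of such a mixture, fewer acetylated nuclei and less acetylation per nucleus cannot be told apart.

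Peaks were called from 22864189 to 37923809 tags in each library, which gave 93575 to 136409 peaks in control and 64245 to 135494 peaks in *Tip60* cKO libraries. *Tip60* cKO library 5 had the fewest tags and peaks, and comparisons of genotypes per library are therefore also given without it. Since the background comes from 1 input library per genotype, the input and the genotype cannot be told apart. In control libraries 27.4 to 34.5% of all peaks were measured against the genome-wide background, compared with 45.3 to 57.8% in *Tip60* cKO libraries, and the part of this in the results was not tested. Of 9 neuronal markers 6 had a peak at the 5′ end in all 10 lists, while *Gad1*, a marker of inhibitory neurons, had none. None of 5 astrocyte, 5 microglial and 4 endothelial markers had a peak in all 10 lists, and among 5 oligodendrocyte markers only *Mbp* did. The astrocyte marker *Gfap* had a peak in 5 control and 3 *Tip60* cKO lists and *Slc1a3* in 2 and 1, so that the summed rank score, a scale explained with the levels, of the 5 astrocyte markers was 67.0 to 157.0 in control and 0 to 78.3 in *Tip60* cKO libraries, whereas that of the 4 endothelial markers was 0 in control and 0 to 77.8 in *Tip60* cKO libraries, from *Cldn5* and *Flt1* with a peak in 1 *Tip60* cKO list each. That of the 5 microglial markers was 0 to 68.8 in control and 0 in *Tip60* cKO libraries. The part of these sums in the results was not tested. At the 5′ end of *Kat5* itself the score was 97.7 ± 1.97 in control and 95.1 ± 4.79 in *Tip60* cKO libraries (SD, n = 5, adjusted p-value of limma 0.567). This window overlaps the floxed part of the gene and had a peak in 5 of 5 *Tip60* cKO lists. How far the gene was deleted in these libraries was not tested.

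Sequences at 10 internal windows on which the results below turn are given first. Each holds the annotated start as its last base (for *Tead2* that of a truncated transcript in a coding exon, which need not be a true start) and the 200 bases upstream of it, in the direction of transcription and in GRCm38 coordinates, with CpG dinucleotides in capitals, because internal promoters with and without H4K12ac differed in CpG content. The first are from *Src* (chr2:157424080-157424280, plus strand) and *Nfyc* (chr4:120825707-120825907, minus strand), with some of the highest scores, from *Cacna1a* (chr8:84415164-84415364, plus strand), whose 5′ end had no peak, and from *Nrxn2* window 2 (chr19:6497628-6497828, plus strand).
Src: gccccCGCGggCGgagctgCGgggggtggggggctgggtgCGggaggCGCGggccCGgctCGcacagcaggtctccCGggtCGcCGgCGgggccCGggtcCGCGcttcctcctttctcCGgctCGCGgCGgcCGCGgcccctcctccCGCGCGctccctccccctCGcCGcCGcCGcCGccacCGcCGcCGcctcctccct
Nfyc: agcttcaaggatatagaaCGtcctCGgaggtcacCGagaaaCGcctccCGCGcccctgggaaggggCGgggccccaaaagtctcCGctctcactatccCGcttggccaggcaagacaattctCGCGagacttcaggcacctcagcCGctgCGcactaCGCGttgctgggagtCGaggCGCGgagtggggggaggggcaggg
Cacna1a: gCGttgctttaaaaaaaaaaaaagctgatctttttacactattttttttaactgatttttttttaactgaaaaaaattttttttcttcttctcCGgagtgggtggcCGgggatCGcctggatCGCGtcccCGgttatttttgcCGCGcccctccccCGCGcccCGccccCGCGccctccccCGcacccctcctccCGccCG
Nrxn2: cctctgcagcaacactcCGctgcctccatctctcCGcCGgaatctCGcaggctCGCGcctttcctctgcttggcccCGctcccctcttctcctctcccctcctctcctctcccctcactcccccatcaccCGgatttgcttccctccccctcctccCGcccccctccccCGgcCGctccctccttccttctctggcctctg
These 4 sequences hold 33, 18, 17 and 11 CpG, and all of them contain a GC box. *Bdnf* window 1 (chr2:109692236-109692436, plus strand) and *Shank3* (chr15:89532690-89532890, plus strand) stand for neuronal genes with a peak at an internal start in all 10 lists.
Bdnf: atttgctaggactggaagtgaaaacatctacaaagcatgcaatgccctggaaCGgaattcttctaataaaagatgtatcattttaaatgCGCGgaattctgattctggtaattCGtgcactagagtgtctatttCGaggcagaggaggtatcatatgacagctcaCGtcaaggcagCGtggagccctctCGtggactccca
Shank3: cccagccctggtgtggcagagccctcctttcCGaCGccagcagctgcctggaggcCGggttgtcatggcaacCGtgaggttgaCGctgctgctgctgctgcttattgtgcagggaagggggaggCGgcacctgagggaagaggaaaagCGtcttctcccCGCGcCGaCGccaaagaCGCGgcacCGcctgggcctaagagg
*Bdnf* has 8 CpG here and *Shank3* 14, and neither has a GC box. The last are windows that differed between genotypes by the limma test, in *Tead2* (chr7:45231109-45231309, plus strand) and *Klf13* (chr7:63924870-63925070, minus strand), or in how many lists of each genotype held a peak, in *Kcnma1* (chr14:23803304-23803504, minus strand) and *Lingo2* window 3 (chr4:35845204-35845404, minus strand).
Tead2: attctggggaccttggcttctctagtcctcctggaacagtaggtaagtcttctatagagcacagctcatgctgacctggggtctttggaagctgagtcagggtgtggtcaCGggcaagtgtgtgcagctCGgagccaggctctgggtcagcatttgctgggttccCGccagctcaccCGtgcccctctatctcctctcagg
Klf13: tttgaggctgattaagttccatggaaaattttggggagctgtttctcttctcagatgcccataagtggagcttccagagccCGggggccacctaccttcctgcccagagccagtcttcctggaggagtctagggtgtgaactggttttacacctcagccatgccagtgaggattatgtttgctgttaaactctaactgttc
Kcnma1: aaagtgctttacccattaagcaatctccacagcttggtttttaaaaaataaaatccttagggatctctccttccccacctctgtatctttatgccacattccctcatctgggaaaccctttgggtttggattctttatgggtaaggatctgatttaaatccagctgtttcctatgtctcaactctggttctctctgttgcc
Lingo2: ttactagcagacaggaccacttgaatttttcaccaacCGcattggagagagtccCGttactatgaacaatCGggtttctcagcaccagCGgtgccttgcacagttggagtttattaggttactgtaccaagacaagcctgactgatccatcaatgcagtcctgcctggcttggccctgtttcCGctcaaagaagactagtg
With 4, 1, 0 and 5 CpG these are poor in CpG compared with the first group. Windows are referred to by gene and, where a gene has several, by their number from the 5′ side.

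H4K12ac was found at a minority of internal promoters. A peak overlapped 2849 of 6228 internal windows in at least 1 list, 934 windows (14.997%) of 801 genes had a peak in all 10 lists, and 3379 windows (54.3%) had none. The 5′ ends of the same 4338 genes had a peak in all 10 lists in 2191 cases (50.5%) and in no list in 1194 cases. In control libraries 28.8% ± 2.45 of internal windows held a peak compared with 64.3% ± 1.001 of the 5′ ends (SD, n = 5). The difference was −35.3 percentage points on average and had the same direction in 10 of 10 libraries (exact sign-flip test, two-sided, p = 0.00195, the smallest this test can give). A peak that also reached a 5′ end window was found at only 1 internal window.

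Peaks were centred on the internal starts. Within 0.5 kb of the TSS peaks covered 18.5% ± 1.98 of the sequence in control libraries, and at 3 to 5 kb on either side 5.06% ± 1.11. TSS coverage exceeded flank coverage by 12.3 percentage points over the 10 libraries, in 10 of 10 (exact sign-flip test, p = 0.00195). For transcripts with a complete start the excess was 17.3 percentage points, while it was 1.48 for truncated transcripts. The profile of complete starts had its maximum in control libraries at 150 bp downstream, where 29.8% ± 2.29 of the starts were covered, and the profile of the 5′ ends of the same genes at 250 bp with 52.5% ± 1.60. At the 5′ ends the coverage dipped to 28.9% ± 2.88 at 50 bp upstream, a position where nucleosomes are known to be missing at active promoters. No comparable dip was present in the mean profile of internal starts, with 22.4% ± 2.32 at 50 bp and 21.2% ± 2.20 at 250 bp upstream. Summits of the strongest peaks lay a median of 118 bp downstream of the nearest complete start in 809 windows with a peak in all 10 lists. The distance was 119 to 135 bp in control and 102 to 125 bp in *Tip60* cKO libraries, a difference of −13.6 bp that missed the threshold (exact permutation test, two-sided, p = 0.0556). It depended on the setting, with −17.2 bp in windows of 0.5 kb (exact permutation test, p = 0.0238), −17.0 bp without *Tip60* cKO library 4 (p = 0.00794 by the same exact test), −11.3 bp without *Tip60* cKO library 5 (exact p = 0.111) and −5.10 bp in windows with a peak in at least 5 lists (exact p = 0.381).

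**Figure D1:**
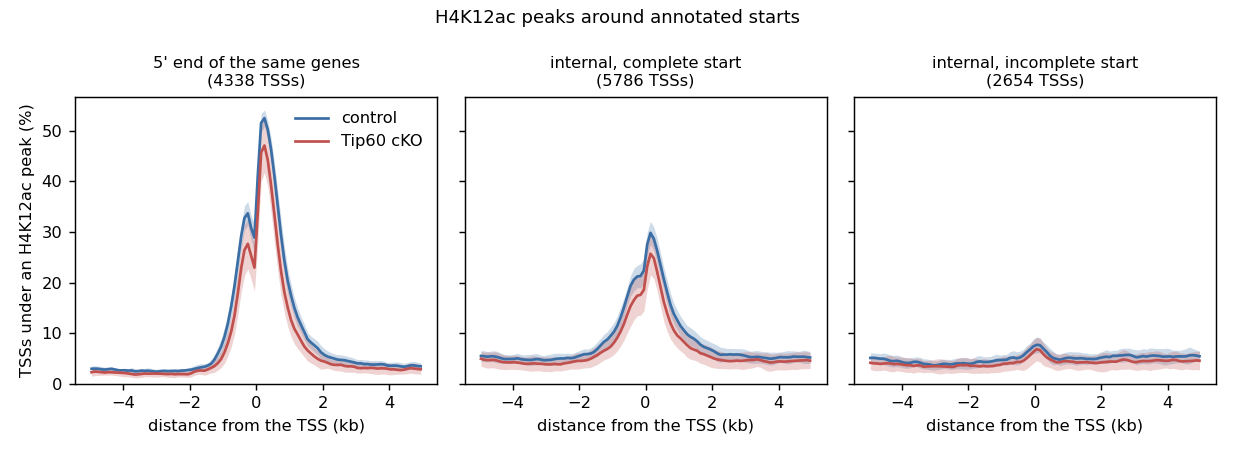
Percent of TSSs covered by an H4K12ac peak (y axis) against the distance from the TSS in kb, with upstream at the left (x axis), for the 5′ ends of the same genes (left panel), internal starts with a complete transcript (middle) and internal starts of truncated transcripts, labelled incomplete (right), as lines for the mean of 5 control and of 5 *Tip60* cKO libraries and SD as shading. In control libraries the 5′ ends reach 52.5%, complete internal starts 29.8% and truncated starts 7.68%.

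CpG content divided the internal promoters into groups with very different acetylation. A window was called CpG-rich when any 500 bp of it had at least 55% GC and a CpG frequency of at least 0.6 of that expected from its bases, and CpG-poor when no 500 bp reached 0.4. Of 782 CpG-rich internal windows 63.8% had a peak in all 10 lists, compared with 10.3% of 2673 intermediate and 5.81% of 2773 CpG-poor windows. In control libraries the share with a peak was 80.2% ± 1.18 in CpG-rich, 25.7% ± 2.84 in intermediate and 17.3% ± 2.61 in CpG-poor windows (SD, n = 5). CpG-rich and CpG-poor windows differed by 62.3 percentage points over the 10 libraries (10 of 10, exact sign-flip test, p = 0.00195). The 5′ ends of the same genes were CpG-rich in 64.3% of cases, but only 12.6% of the internal windows were.

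Within CpG classes the shares of internal windows and 5′ ends lay closer together. The share with a peak in internal windows minus that in 5′ ends was −9.49 percentage points in CpG-rich and −3.78 points in intermediate windows. Among CpG-poor windows the order was the opposite, with 7.17 points. Each of these differences had the same direction in 10 of 10 libraries (exact sign-flip test, p = 0.00195 for each).

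Windows with a complete annotated start were acetylated more often than windows with truncated transcripts alone, with 34.4% ± 1.94 and 19.3% ± 3.33 in control libraries and a difference of 14.9 percentage points over all libraries (10 of 10, exact sign-flip test, p = 0.00195). This difference was 27.9 points within CpG-rich and 11.3 points within intermediate windows. In CpG-poor windows it was 0.0641 points and above 0 in 4 of 10 libraries (exact sign-flip test, p = 0.924). Among windows with a complete start, those in an intron of a longer transcript held a peak in 40.2% ± 2.42 in control libraries, those in a coding exon in 9.04% ± 0.742 and those in a UTR exon in 21.3% ± 1.43. Transcripts with a start codon of their own were acetylated more often than transcripts that share the start codon of the full-length form, by 11.9 percentage points (10 of 10 libraries, exact sign-flip test, p = 0.00195). Within CpG-rich windows this difference was 0.971 points (7 of 10, p = 0.199 by the same exact test), within intermediate windows 11.6 and within CpG-poor windows 6.35.

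The share with a peak also differed with the distance from the 5′ end of the gene. In control libraries it was 27.4% ± 1.35 in the 960 complete windows nearest to the 5′ end (up to 10 kb) and 44.4% ± 2.59 in the 647 windows more than 100 kb away, which was not tested. With the best transcript support level of the annotation 44.6% ± 2.17 of windows held a peak, compared with 23.9% ± 1.75 of the others. These are descriptions of the annotation classes, which overlap with each other and with CpG content.

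**Figure D2:**
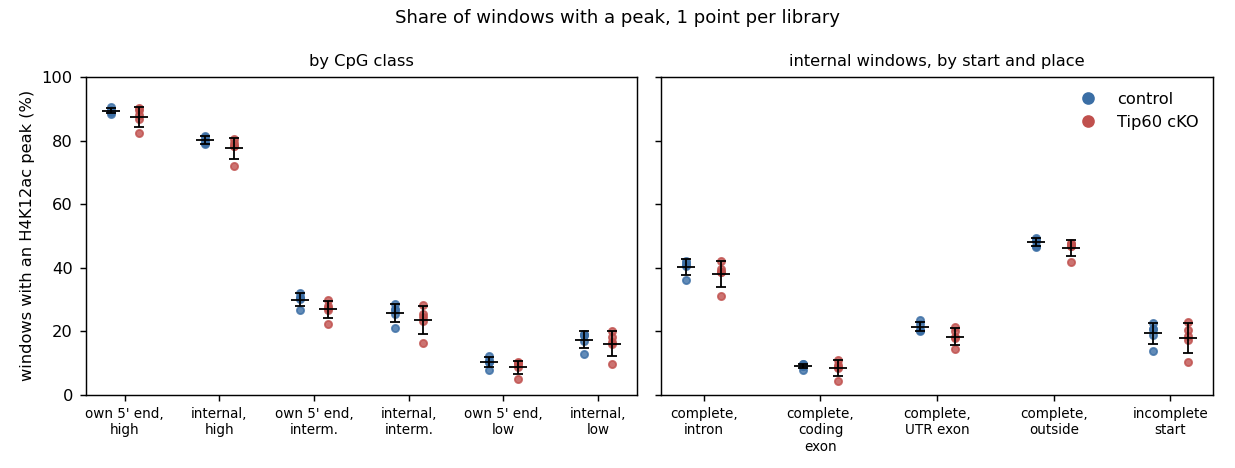
Percent of windows with an H4K12ac peak (y axis) by class of window (x axis), with 1 point per library in the colour of its genotype and bars for the mean and SD. The left panel gives 5′ ends and internal windows of high (CpG-rich), intermediate and low (CpG-poor) CpG content, the right panel internal windows with a complete start by place, including those outside every protein-coding transcript that starts further upstream, and windows with truncated (incomplete) transcripts. CpG-rich internal windows lie near 80.2% in control libraries and CpG-poor ones near 17.3%, and the points of control and *Tip60* cKO libraries overlap in the internal classes.

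Short motifs were searched on both strands from 250 bases before to 50 after the representative TSS. The GC box (GGGCGG), which binds SP and KLF factors, was present in 873 of 6228 internal windows, in 43.4% of those with a peak in all 10 lists, and in 5.77% of those without any peak. Among the 5′ ends of all autosomal genes 23.6% held it, as did those of the same genes in 2126 of 4338 cases. Within CpG-rich internal windows the share was 64.5% in windows with a peak in all 10 lists and 49.5% in the others. The TATA box (TATAAA) went the other way, with 16.4% of internal windows, 6.75% of those with a peak in all 10 lists and 21.5% of those without a peak, compared with 17.2% of all 5′ ends and 8.25% of those of the same genes. Within CpG-rich internal windows its share was 3.21% with a peak in all 10 lists and 6.01% in the others. The ETS motif (CCGGAA) was found in 6.34% of internal windows and in 11.5% of those with a peak in all 10 lists, beside 10.8% of all 5′ ends and 17.2% of those of the same genes. Among CpG-rich internal windows alone it was present in 15.8% of those with a peak in all 10 lists and in 15.2% of the others. The cyclic AMP response element (TGACGTCA) was rare, with 0.690% of internal windows, 1.61% of those with a peak in all 10 lists, 1.31% of all 5′ ends and 2.01% of those of the same genes. AP-1 sites (TGANTCA) occurred in 9.23% of internal windows, in 6.75% of those with a peak in all 10 lists in 7.95% of all 5′ ends and in 5.90% of those of the same genes. A match of letters is no evidence of binding.

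To compare levels between libraries of different depth, each window received a rank score, which is its percent rank by the fold enrichment of its strongest peak among all 57457 windows of the library, or 0 without a peak. The weakest peak of a library scored between 66.5 and 73.4, so that scores lie either at 0 or above that level. The strongest internal windows lay near the top of this scale. *Rcbtb2* window 2, in a gene for a regulator of chromosome condensation family protein, had 99.7, 99.2, 99.7, 99.8 and 99.9 in the 5 control libraries and 99.6, 99.8, 98.99, 99.8 and 99.96 in the 5 *Tip60* cKO libraries. *Src*, the gene of a tyrosine kinase with a neuronal splice form, had 99.6, 99.9, 99.4, 99.6 and 99.6 in control and 99.8, 99.9, 99.1, 99.7 and 99.99 in *Tip60* cKO libraries at its window 5.84 kb inside the gene. All of these values are 98.99 or higher, and the genotypes overlap. At *Src* the fold enrichment was 9.95 to 11.9 in control and 8.98 to 11.7 in *Tip60* cKO libraries, and its 5′ end had a peak in only 7 of 10 lists.

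Of the other leading windows, *Zfp638*, a zinc finger protein gene, scored 98.7 to 99.8 in control and 86.0 to 98.8 in *Tip60* cKO libraries, and *Gse1* scored 98.4 to 99.97 and 97.8 to 99.9. *Nfyc*, which encodes a subunit of the CCAAT-binding factor NF-Y, scored 97.3 to 99.9 and 94.1 to 99.9. *Kansl1*, the scaffold of the acetyltransferase complex NSL, scored 97.0 to 99.98 and 96.1 to 99.9, and *Mllt10*, a cofactor of the H3K79 methyltransferase DOT1L, scored 96.8 to 99.97 and 91.1 to 98.8. *Nrxn2* window 2, *Speg* and *Pnrc1* completed the 10 windows with the highest control mean, with control means of 99.0 ± 0.729, 99.0 ± 0.775 and 99.1 ± 0.872. All 10 were CpG-rich, and the limma test called none of them.

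**Figure D3:**
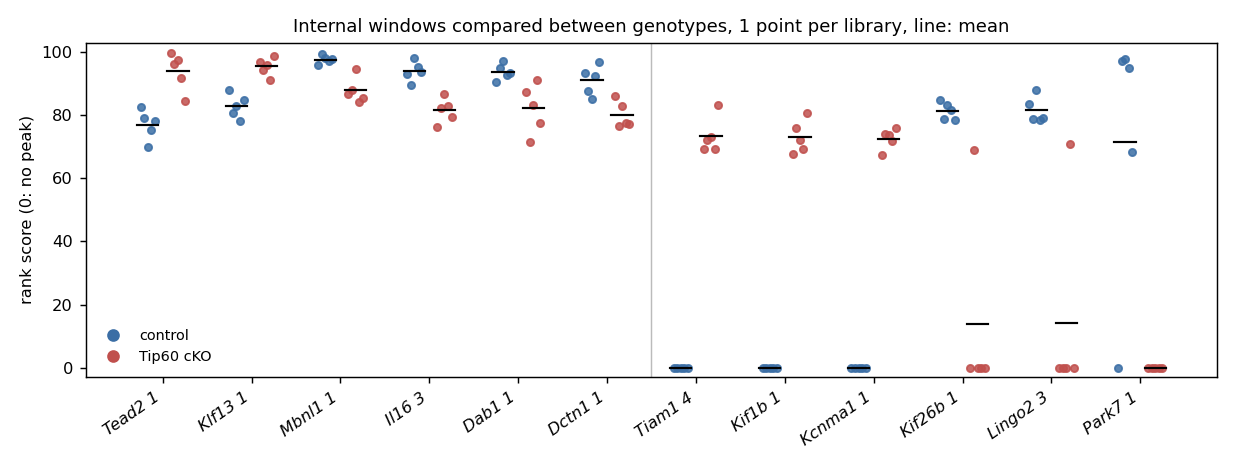
Rank score (y axis, percent rank by fold enrichment, 0 without a peak) of internal windows that are compared between genotypes (x axis), numbered from the 5′ side, with 1 point per library in the colour of its genotype and a line at the group mean. *Tead2* and *Klf13* lie higher in *Tip60* cKO libraries, *Mbnl1* lies lower, and in windows such as *Kif26b* and *Lingo2* most *Tip60* cKO libraries are at 0.

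In 234 internal windows of 214 genes a peak was present in all 10 lists while the annotated 5′ end of the gene had a peak in at most 2 lists, and in 179 of them the 5′ end had no peak in any list. Of the 234 windows 178 were CpG-rich, but only 22 had a CpG-rich 5′ end. The annotated 5′ end is that of the most upstream transcript of any kind, and it can belong to a rare transcript. *Cacna1a*, the pore subunit of the P/Q-type calcium channel, scored 98.3, 95.4, 94.4, 98.9 and 98.0 in control and 93.4, 92.3, 96.1, 96.4 and 96.0 in *Tip60* cKO libraries at a window 26.9 kb inside the gene, and 0 at the 5′ end in every library. *Cacna1d*, the pore subunit of an L-type channel, scored 99.9, 97.9, 99.9, 96.8 and 99.6 and then 97.9, 99.2, 99.5, 98.9 and 86.8 at a window 138 kb inside. Both genes are high in every library and their genotypes overlap.

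*Kat6b*, a lysine acetyltransferase of histone H3, scored 97.1 to 99.9 in control and 97.4 to 99.4 in *Tip60* cKO libraries at a window 18.3 kb inside, with no peak at the 5′ end. The same was seen at *Set*, the gene of an inhibitor of histone acetylation, with 96.8 to 99.6 and 91.8 to 99.4. *Sgip1*, an endocytic regulator of neurons, *Zbtb38*, a reader of methylated DNA, *Rnf220*, a ubiquitin ligase, *Stox2* and *Dennd6a* also belonged to the 10 highest windows of this kind. Their control means ranged from 98.3 ± 1.36 (*Zbtb38*) to 98.9 ± 0.783 (*Dennd6a*). None of them was called by limma. Across all 4338 genes, the best internal window outranked the 5′ end in every control library in 391 genes and in all 10 libraries in 297 genes.

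**Figure D4:**
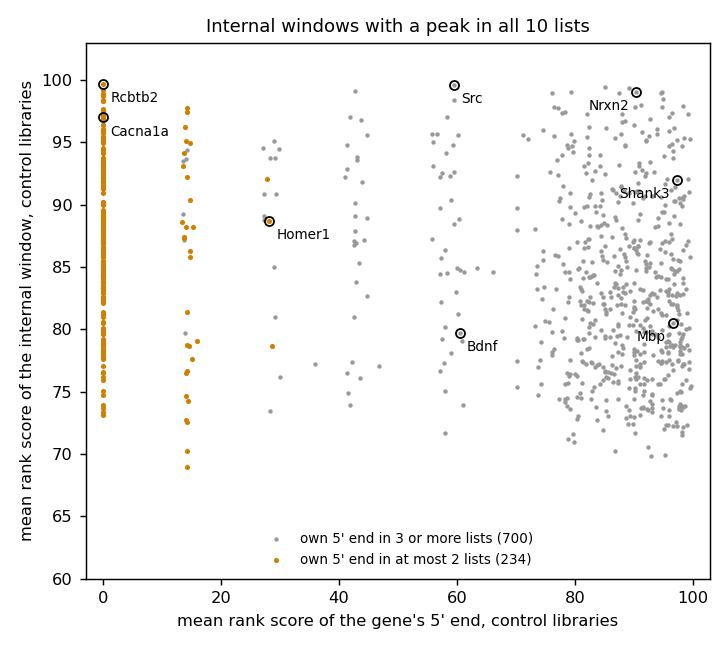
Mean rank score in 5 control libraries of the gene's 5′ end (x axis) and of the internal window (y axis, starting at 60), 1 point for each of the 934 internal windows with a peak in all 10 lists, in orange for the 234 windows whose 5′ end had a peak in at most 2 lists and in grey for the others. Windows without a peak at the 5′ end, such as those of *Rcbtb2* and *Cacna1a*, lie along the left edge, and *Nrxn2*, *Shank3* and *Mbp* score high at the 5′ end as well.

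Several internal promoters of a gene could have a peak in the same libraries. Whether they were acetylated in the same nuclei was not tested. In 106 genes 2 or more internal windows had a peak in all 10 lists. *Tcf4*, a bHLH transcription factor gene known for its many promoters, had 5 such windows. *Kalrn*, a synaptic guanine nucleotide exchange factor, had 4, as did *Elmo2*, *Nedd4l*, *Pitpnm2* and *Fam53b*. *Trio*, the relative of *Kalrn*, had 3.

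Neurexins differed between family members in which start was acetylated. *Nrxn2* window 2, 79.1 kb inside the gene and with a start codon of its own, scored 99.2, 99.3, 97.7, 99.6 and 99.3 in control and 96.4, 88.1, 97.2, 89.3 and 97.0 in *Tip60* cKO libraries. Every *Tip60* cKO library lay below every control library at this window, although limma did not call it (−5.41, SE 1.85, adjusted p-value 0.225). *Nrxn2* window 1, 9.19 kb inside, went the other way with 73.6 to 79.8 in control and 80.7 to 93.1 in *Tip60* cKO libraries, also without a call (adjusted p-value of limma 0.234). *Nrxn3* had a peak in at most 8 lists at any internal window, and window 2 with the highest scores lay at 77.9 to 88.1 in control libraries and had no peak in *Tip60* cKO libraries 4 and 5.

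*Bdnf* window 1, which merges several starts from 17.7 kb inside the gene on, scored 76.5, 76.9, 82.0, 81.7 and 81.4 in control and 75.8, 73.9, 80.7, 78.5 and 78.3 in *Tip60* cKO libraries. These levels are moderate and overlap between genotypes. *Bdnf* window 2, at 34.7 kb, held a peak in 3 control lists and 1 *Tip60* cKO list. In the list of 34 neurotrophin, adhesion and synapse organizer genes, 58 internal windows were found in 24 genes and 8 of them (13.8%) had a peak in all 10 lists, beside 14.997% of all internal windows. *Nlgn1*, the postsynaptic partner of neurexins, scored 87.6 to 96.5 in control and 77.5 to 92.3 in *Tip60* cKO libraries, and the teneurin gene *Tenm4* 81.7 to 93.2 and 89.3 to 96.1.

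Postsynaptic genes had the highest share of constantly acetylated internal windows among the lists, with 29 of 61 windows (47.5%) in all 10 lists. *Shank3*, a scaffold of excitatory synapses known for several internal promoters, scored 89.5, 90.2, 92.5, 92.2 and 95.7 in control and 97.5, 96.8, 94.2, 99.9 and 94.9 in *Tip60* cKO libraries. Its adjusted p-value by limma was 0.370, with a difference of 4.65 (SE 2.01). *Shank2* windows 2 and 3 were acetylated at 94.2 ± 2.48 and 97.2 ± 1.75 in control libraries, while the 5′ end of *Shank2* had no peak. *Homer1*, which links metabotropic receptors to Shank proteins, scored 86.2 to 92.8 in control and 74.8 to 86.6 in *Tip60* cKO libraries at a window 5.16 kb inside (adjusted p-value of limma 0.286), and its 5′ end had a peak in only 2 lists. *Magi1* scored 87.9 to 99.1 and 79.8 to 97.8.

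Among presynaptic release genes 4 of 24 windows (16.7%) had a peak in all 10 lists, beside 934 of 6228 (14.997%) over all internal windows. Shares were not tested between lists. *Bsn*, the active zone scaffold bassoon, scored 83.0 to 94.9 in control and 88.0 to 95.7 in *Tip60* cKO libraries, at a truncated transcript start in a coding exon. *Unc13a*, the vesicle priming factor, had a peak in all lists at a start of the same kind with 77.1 to 82.6 and 68.9 to 84.99. For *Dnajc6*, which uncoats endocytic vesicles, the scores were 86.9 to 91.8 and 78.5 to 90.4.

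Ion channel genes had 16 of 47 windows (34.04%) in all 10 lists, including the calcium channel windows above. Cyclic nucleotide and kinase signalling genes had 22 of 69 windows (31.9%), led by the phosphodiesterase genes *Pde10a* (97.8 ± 1.39 in control libraries) and *Pde8b* (97.4 ± 1.91) and by the diacylglycerol kinase gene *Dgkz* (96.2 ± 3.47). *Dclk1*, a microtubule-associated kinase, was lower at its internal window, with 71.2 to 82.6 in control and 70.8 to 84.6 in *Tip60* cKO libraries, and had 97.4 ± 1.56 at its 5′ end in control libraries. Cytoskeletal linker and microtubule genes had 24 of 95 windows (25.3%), with *Sptbn4* (96.1 ± 1.81 in control libraries) and *Epb41l3* (95.2 ± 3.44).

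Transcription factor and cofactor genes had 23 of 93 windows (24.7%) in all 10 lists. *Hivep3* scored 93.6 to 99.5 in control and 89.1 to 99.8 in *Tip60* cKO libraries. At *Camta1*, a calmodulin-binding transcription activator, windows 1 and 2 went in opposite directions, with 89.7 to 99.15 and 99.18 to 99.99 at window 1 and 89.0 to 98.9 and 77.0 to 94.9 at window 2, and neither was called (adjusted p-values of limma 0.393 and 0.196). All 5 internal windows of *Crem* were at 0 in all 10 lists, whereas its 5′ end had a peak in 9 lists. Which of these windows, if any, holds the start of the inducible repressor ICER, for which the gene is known, was not determined. *Ppargc1a*, a coactivator of mitochondrial genes, had a peak in 1 control list at its internal window.

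RNA-binding genes had 10 of 37 windows (27.03%), with *Celf2* window 2 at 96.4 ± 3.55 and *Rbfox3* window 2 at 92.2 ± 3.61 in control libraries. Genes of the TIP60 complex and of histone acetylation had 9 of 39 windows (23.1%). Besides *Kat6b*, the deacetylase genes *Sirt1* (97.4 ± 0.714) and *Hdac7* (95.7 ± 5.04) were high, and the 5′ end of *Hdac7* had a peak in 5 lists. Imprinted genes had 1 of 11 windows in all 10 lists, which was *Gnas* window 2 with 92.3 to 99.3 in control and 85.6 to 97.0 in *Tip60* cKO libraries. *Gnas*, which encodes a stimulatory G protein subunit, had a peak in 2 control lists and 1 *Tip60* cKO list at window 1, and the growth factor receptor adaptor gene *Grb10* lacked a peak only in *Tip60* cKO library 2. Glial and vascular genes had 1 of 10, which was *Mbp*. *Mbp* encodes the myelin basic protein of oligodendrocytes and, from an upstream start, the golli proteins, which neurons make as well. Its internal window scored 77.1 to 84.9 and 77.1 to 89.99, below its 5′ end (96.6 ± 1.13 in control libraries). *Slc1a2* window 3, in a glutamate transporter gene, had a peak in 9 lists and the window of the microglial receptor gene *Csf1r* in 6, with scores of 67.3 to 81.6 where a peak was present.

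Over all internal windows the genotypes did not differ by more than the spread between libraries in the share with a peak, rank score or peak coverage. Ranks are taken within each library, so a loss shared by all windows leaves their order unchanged. Peaks too were called within each library, without a common scale, so such a loss need not show in these measures. Whether H4K12ac fell over all windows alike was not tested. The share with a peak was 29.74, 31.005, 28.63, 24.69 and 29.96% in control and 31.05, 27.65, 28.76, 26.99 and 20.33% in *Tip60* cKO libraries. Apart from library 5, *Tip60* cKO libraries lie within the range of the control libraries or at its upper end. The difference was −1.85 percentage points (exact permutation test of 5 against 5 libraries, two-sided, p = 0.484), −0.637 among libraries of lane 7 and −3.67 among those of lane 8, and −0.193 without *Tip60* cKO library 5. The mean rank score was 22.8 ± 1.74 in control and 21.7 ± 2.79 in *Tip60* cKO libraries (exact permutation test, p = 0.524), a difference of −1.07 that turned to 0.0853 without *Tip60* cKO library 5. The mean part of a window covered by peaks was 10.6% ± 1.57 and 8.73% ± 2.33 (p = 0.190 by the same exact test), with a difference of −1.90 over all libraries, −1.14 in lane 7, −3.03 in lane 8 and −0.998 without *Tip60* cKO library 5. At the 5′ ends of the same genes it was 31.3% ± 2.33 and 25.3% ± 4.47 (exact permutation test, p = 0.0159, 0.0661 after Benjamini-Hochberg adjustment over 25 comparisons), with a difference of −5.99 that was −4.23 without *Tip60* cKO library 5.

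Over all windows the rank score of internal windows minus that of the 5′ ends of the same genes did not separate the genotypes, with −32.9 ± 1.31 in control and −32.2 ± 1.28 in *Tip60* cKO libraries (difference 0.672, exact permutation test, p = 0.421, and 0.964 without *Tip60* cKO library 5). Neither did the share with a peak, where the difference was 0.262 percentage points (exact p = 0.794), 0.742 without *Tip60* cKO library 5, and between −0.346 and 0.765 without any single library. Among windows with a peak in all 10 lists, namely 934 internal windows and 2191 5′ ends, internal promoters and 5′ ends were compared between genotypes by measures added after the data had been seen. The adjusted p of 0.0496 given below is reached only because several of these added measures, which use the same windows, tie at the smallest p of the test. It is therefore no independent support for any 1 of them. The median fold enrichment of internal windows was 5.41 ± 0.179 in control and 5.03 ± 0.132 in *Tip60* cKO libraries (exact permutation test, p = 0.0159, adjusted p = 0.0661), a difference of −0.380 that was −0.323 without *Tip60* cKO library 5. Their rank score went the other way, with 84.6 ± 0.244 in control and 85.5 ± 0.527 in *Tip60* cKO libraries, each of which lay above every control library (p = 0.00794 by exact permutation, adjusted p = 0.0496). This difference of 0.872 was 0.725 to 1.03 without single libraries (exact p = 0.00794 to 0.0476), and the higher of these p-values would not pass the adjustment. Ranks were taken in lists of different length, in which the weakest peak scored 66.5 to 73.4. *Tip60* cKO library 5, with the fewest peaks, had the highest value, 86.04, and control library 4, with the fewest control peaks, the lowest, 84.2. The part of list length in this difference was not tested. The median fold enrichment of the 5′ ends was 6.64 ± 0.290 and 5.80 ± 0.332 (exact permutation test, p = 0.00794, adjusted p = 0.0496), with a difference of −0.844 and, without *Tip60* cKO library 5, −0.745. Without control library 1 or 3 the exact p was 0.0159, which would not pass the adjustment. The rank score of internal windows relative to the 5′ ends was −4.57, −4.62, −4.93, −5.23 and −4.19 in control and −3.92, −3.24, −3.17, −3.99 and −2.87 in *Tip60* cKO libraries. Every *Tip60* cKO library lay above every control library in these selected windows. The difference was 1.27 (p = 0.00794 by exact permutation, adjusted p = 0.0496), with 1.26 in lane 7, 1.28 in lane 8 and 1.13 without *Tip60* cKO library 5 (exact p = 0.0159). It was 0.714 with ranking by pileup (exact permutation test, p = 0.0476) and 0.973 in windows of 0.5 kb (exact p = 0.0238), and since the adjusted value is just below 0.05 at the smallest p of the test, none of these 3 would pass the adjustment, nor would the differences without control library 3 or 4 (1.21 and 1.14, exact p = 0.0159 for each). The median pileup of internal windows was 85.2% ± 1.62 of that of the 5′ ends in control and 90.5% ± 2.47 in *Tip60* cKO libraries (p = 0.00794 by exact permutation, adjusted p = 0.0496), a difference of 5.36 percentage points that was 4.47 without *Tip60* cKO library 5. Without any single *Tip60* cKO library the exact p was 0.0159, which would not pass the adjustment. For the median fold enrichment these percentages were 81.5 ± 2.31 and 86.9 ± 3.65, with overlapping groups, and the difference of 5.41 percentage points did not pass the adjustment (exact permutation test, p = 0.0317, adjusted p = 0.113). Of the 934 internal windows 538 had the higher mean in *Tip60* cKO libraries, compared with 978 of 2191 5′ ends and 6301 of 12734 windows in all with a peak in all 10 lists. Selecting windows with a peak in all 10 lists leaves out those that lost the peak in some *Tip60* cKO libraries, and of all 2349 internal windows tested 1142 had the higher mean.

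**Figure D5:**
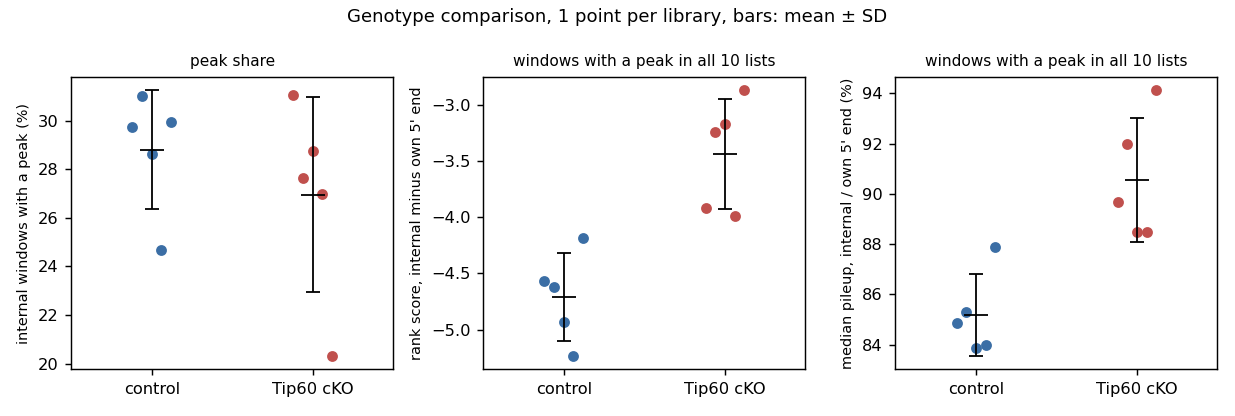
Values (y axes) of 5 control and 5 *Tip60* cKO libraries (x axes), 1 point per library with bars for the mean and SD, as the percent of internal windows with a peak (left panel), the rank score of internal windows minus that of 5′ ends (middle) and the median pileup of internal windows in percent of that of 5′ ends (right), the last 2 for windows with a peak in all 10 lists; no y axis starts at 0. The share of internal windows with a peak overlaps between genotypes, and the rank score difference lies between −5.23 and −4.19 in control and between −3.99 and −2.87 in *Tip60* cKO libraries.

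Single windows were compared with limma on the rank scores of the 21703 windows where 2 or more libraries had a peak, and 2349 of these windows were internal. At an adjusted p-value below 0.05, 2 internal windows were higher (0.0851%, beside 0.309% of all windows tested) and 0 were lower (beside 0.143%) in *Tip60* cKO libraries. With an unadjusted p-value below 0.05 limma gave 140 lower internal windows (5.96%, beside 6.88%) and 111 higher ones (4.73%, beside 5.39%). Groups did not overlap in 27 lower internal windows (1.15%, beside 1.58%) and in 41 higher ones (1.75%, beside 1.84%). None of these shares exceeded that of all windows.

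The *Tead2* window, 15.6 kb inside the gene of a Hippo pathway transcription factor, scored 82.5, 79.3, 69.9, 75.4 and 78.2 in control and 99.8, 96.1, 97.5, 91.9 and 84.5 in *Tip60* cKO libraries. The groups do not overlap, and *Tip60* cKO library 5 lies nearest to the controls. The difference was 16.9 (SE 3.397, adjusted p-value of limma 0.0196), with 20.6 in lane 7 and 11.4 in lane 8. Fold enrichment was 3.24 to 5.10 in control and 4.68 to 10.6 in *Tip60* cKO libraries, with a background of 1.32 times the genome-wide level in control and 1.05 times in *Tip60* cKO libraries, whose part in the difference was not tested. Its only transcript is truncated and starts in a coding exon. In windows of 0.5 kb and 2 kb the differences were 2.90 and 6.95 (adjusted p-values of limma 1.0 and 0.5003). With equal numbers of peaks the difference was 30.9 (adjusted p-value of limma 0.436). Moreover, *Tead2* was not called when *Tip60* cKO library 1, 2 or 4 or control library 3 was left out (adjusted p-values of limma up to 0.0712). Nor was it called with the replicate number as a block (adjusted p-value of limma 0.0692).

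*Klf13*, which encodes a GC box binding factor, scored 88.1, 80.8, 82.9, 78.1 and 84.8 in control and 97.0, 94.4, 96.1, 91.1 and 98.8 in *Tip60* cKO libraries at a CpG-poor window in an intron, 14.045 kb inside. Here too the groups do not overlap. The difference was 12.6 (SE 2.90, adjusted p-value of limma 0.0427), with 11.9 and 13.5 in lanes 7 and 8, at a background of 1.27 and 1.02 times the genome-wide level. Of the fits that each left out 1 library, only that without control library 1 called it, and the adjusted p-value of limma was 0.0579 to 0.110 in the other 9. In windows of 0.5 kb the difference was 9.48 (adjusted p-value of limma 0.240). With the replicate number as a block *Klf13* was not called either (adjusted p-value of limma 0.0732). With the default eBayes settings of limma, which give every window the same prior spread, neither *Tead2* nor *Klf13* was called (adjusted p-value 0.112 for both) and 3 other windows were, in *Kcnma1*, *Kif1b* and *Tiam1*, where a peak was found in *Tip60* cKO lists alone. With ranking by pileup the adjusted p-values of limma were 0.409 for *Klf13* and 0.288 for *Tead2*.

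Ranking by pileup, the number of fragments over the summit, gave 1 call among internal windows, in *Camk2a*, the gene of a calcium-dependent kinase of excitatory neurons after which the driver is named. The window lies 37.9 kb inside the gene and was named after its values had been seen. Its rank score by pileup was 73.4, 77.3, 79.1, 72.7 and 73.8 in control and 96.9, 94.4, 99.7, 98.9 and 98.5 in *Tip60* cKO libraries (difference 22.4, adjusted p-value of limma 1.70e-04). By fold enrichment it was 72.1 to 78.7 in control and 69.95 to 77.0 in *Tip60* cKO libraries, so that the genotypes separated on one scale and overlapped on the other. The background to which the pileup is compared, in multiples of the genome-wide level, was 1.16 to 1.21 in control and 2.55 to 3.64 in *Tip60* cKO libraries. The same was seen at the 5′ end of *Camk2a*, with a background of 1.42 to 1.66 and 2.59 to 3.44. Only *Tip60* cKO mice carried the driver, so driver and deletion cannot be told apart at this locus.

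The 6 lower windows with the smallest p-values were not called. *Mbnl1*, a splicing regulator whose annotated 5′ end had no peak, scored 95.9, 99.5, 98.1, 97.1 and 97.7 in control and 86.8, 88.1, 94.5, 84.2 and 85.6 in *Tip60* cKO libraries. All *Tip60* cKO libraries were below all control libraries, and the difference was −9.80 (SE 2.36, adjusted p-value of limma 0.0512), with −7.99 in lane 7 and −12.5 in lane 8. *Il16* window 3, in a gene with neuronal and immune cytokine precursor forms, scored 89.4 to 98.2 and 76.4 to 86.8 without overlap (adjusted p-value of limma 0.0548). The remaining 4 were in *Dab1*, the adaptor of reelin signalling (93.8 ± 2.50 and 82.2 ± 7.88), in *Dctn1*, a dynactin subunit (91.1 ± 4.75 and 80.1 ± 4.23), in *Ldha*, lactate dehydrogenase A (94.9 ± 3.49 and 84.1 ± 6.51), and in the transcription factor gene *Pou2f2* (87.4 ± 3.41 and 76.3 ± 4.18). Their adjusted p-values by limma were 0.124 to 0.128.

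At the level of peak presence, 39 internal windows had a peak in at least 4 more control than *Tip60* cKO lists (0.626%, beside 0.353% of all windows), and 8 had a peak in at least 4 more *Tip60* cKO lists (0.128%, beside 0.113%). When each library was reduced to the same number of strongest peaks, these counts were 27 and 17. Such a difference is possible only in windows with a peak in 4 to 6 lists. Among these the shares were 9.09% of 429 internal windows and 8.32% of 2439 windows in all for control, and 1.86% and 2.67% for *Tip60* cKO. Of the 39 windows 17 had no peak in any *Tip60* cKO list, 19 lay in coding exons and 27 had a peak in all 10 lists at the 5′ end of the gene. *Tip60* cKO library 5 had a peak in 2 of the 39 windows and *Tip60* cKO library 1 in 9, and without *Tip60* cKO library 5 the count was 40, and 66 without *Tip60* cKO library 1. Without control library 2 the count of 8 became 15. When a library is left out of the group with more peaks, the rule can be met only by 4 lists against 0, so the lower counts that follow (1 to 7 of the first kind, 3 to 7 of the second) follow from a stricter rule and do not bear on stability.

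*Kif26b*, a kinesin family gene, scored 84.7, 79.0, 83.2, 81.7 and 78.7 in control libraries and only *Tip60* cKO library 2 had a peak, with 68.9. *Lingo2* window 3, in a gene for a leucine-rich repeat membrane protein of neurons and 1107 kb inside it, scored 83.4, 79.0, 87.9, 78.5 and 79.2 in control libraries and had a peak only in *Tip60* cKO library 4, with 71.0. At both windows the fold enrichment in control libraries was moderate, 4.34 to 6.35. *Park7*, which encodes the oxidative stress protein DJ-1, had no peak in *Tip60* cKO libraries and 97.1, 97.7, 94.99 and 68.4 in control libraries 2 to 5. The postsynaptic genes *Dlgap2* and *Homer3* and the receptor genes *Epha4* and *Ptprd* were also among the 39, with control scores of at most 78.8. At *Ptprd* window 3 the single *Tip60* cKO peak, in library 5, scored 97.0 and thus lay above every control library (69.9 to 78.4).

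In the other direction *Kcnma1*, the pore subunit of the large conductance potassium channel, had no peak in control lists and scored 67.3, 73.9, 73.6, 71.7 and 76.1 in *Tip60* cKO libraries, at a window without any CpG in the 200 bases shown above. *Kif1b*, an axonal kinesin, scored 67.6 to 80.7 and *Tiam1* window 4, in the gene of a Rac activator, 69.2 to 83.3, with no peak in control lists. Fold enrichment in these 3 windows lay between 2.67 and 4.50. The windows of *Mapre3*, *Plekha7*, *Slc6a6*, *Ak3* and *Mast3* had a peak in 4 *Tip60* cKO lists and none in control lists. All 8 had adjusted p-values of limma above 0.05 with trend and robust settings, from 0.0861 upwards.

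In all 11 gene lists limma called 0 internal windows in either direction. The median difference in rank score was 1.71 in postsynaptic genes, where 30 of 46 tested windows had the higher mean in *Tip60* cKO libraries, and 1.68 in cytoskeletal genes (32 of 55). It was −1.72 in neurotrophin, adhesion and synapse organizer genes (12 of 28 higher), −1.54 in RNA-binding genes (8 of 25), −8.90 in imprinted genes (0 of 3) and −11.9 in glial and vascular genes (3 of 6), where few windows could be tested. In the remaining 5 lists it lay between −0.102 and 0.626. Over all windows tested the median was −0.661 and 9642 of 21703 windows had the higher mean. An unadjusted p-value below 0.05 by limma was reached by 6.88% of all windows tested for lower and 5.39% for higher scores. In the lists these were 4 lower and 4 higher windows of 46 in postsynaptic genes, 4 and 3 of 45 in cyclic nucleotide and kinase signalling genes, 4 and 2 of 28 in neurotrophin, adhesion and synapse organizer genes, and 1 and 4 of 46 in transcription factor genes. Each of the remaining lists had at most 2 in either direction, and the 18 tested windows of genes of the TIP60 complex and of histone acetylation had 0.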

How the data were processed

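H4K12ac ChIP-Seq peak lists of 5 *Tip60* cKO and 5 control libraries were used. Per the study's methods the authors aligned to mm10 with STAR, took out PCR duplicates by means of samtools, and pooled the inputs. Per the file headers they ran MACS 2.1.0.20140616 on each library at q below 0.1 against 1 input file per genotype. In the deposited lists the pileup is a coverage signal, the number of fragments over a peak's summit. Fold enrichment, also deposited, is a ratio in which summit height and local background are each raised by 1. Each peak's p-value and q-value were deposited as −log10 values. Libraries had 22864189 to 37923809 tags. The lists hold no counts per window, so the precision is the spread between libraries, and no peak means only that the threshold was not reached at that depth. The authors' differential binding on reads was not repeated. No column of another sample was present (0).

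A peak counted in a window when 1 base overlapped. Rank scores were compared with limma 3.58.1 (lmFit, eBayes with trend and robust) in R 4.3.3 over 21703 windows with Benjamini-Hochberg adjustment, a step tested on simulated data. Values per library were compared by two-sided exact permutation tests (252 assignments, smallest p 0.00794), values within libraries by exact sign-flip tests, in Python 3.11.15 with numpy 2.4.6, pandas 2.3.3 and scipy 1.17.1. Labels give genotype and replicate number, and the number of animals per library is not given in the sources used here. Labels and methods differ in strain, sex and kit version. Lanes were taken from the file names.

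The members, gene lists, markers and tests were chosen with earlier results of these data known. Windows were named by rule: the 10 with the highest mean control score, those called by limma (or the 6 with the smallest p), the 10 highest in all lists with a 5′ end peak in at most 2 lists (1 per gene), the 3 highest of each gene list, and all windows of 11 chosen genes. A few of these are not reported here. Windows that differed in peak presence, and genes with several windows, were named after their values had been seen. Alternatives were windows of 0.5 and 2 kb, q below 0.01, the 64245 strongest peaks of each library, complete starts only, ranking by pileup, other limma settings and filters, the lane or the replicate number in the fit, and each library left out. Promoter sequences and motifs were read from the GRCm38 genome.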

Additional observations from a re-analysis of the deposited data

Results flagged for a closer look

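In groups of 5 libraries, 167 groups of values were examined for a library far from the others, and 15 had one, where chance gives about 1 in 20 for normally distributed values. Many of these values are rank scores near the top of their scale, and every flagged library was the lowest of its group. That rate therefore need not hold here. *Tip60* cKO library 5, the library with the fewest peaks, was lowest in the mean rank score of CpG-rich internal windows (62.9), in the median fold enrichment of internal windows with a peak in all 10 lists (4.80), at *Cacna1d* (86.8) and at *Nfyc* (94.1). Other *Tip60* cKO libraries lay low at *Gnas* window 2 (library 1, 85.6), *Kansl1* (library 4, 96.1), *Shank2* window 3 (library 3, 93.2) and *Src* (library 3, 99.1). Among control libraries the low values were *Celf2* window 2 (library 4, 90.2), *Hivep3* (library 4, 93.6), *Mllt10* (library 5, 96.8), *Nfyc* (library 5, 97.3), *Nrxn2* window 2 (library 3, 97.7), *Rcbtb2* window 2 (library 2, 99.2) and *Rnf220* window 2 (library 2, 96.0).

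Over all windows the genotype difference in rank score between internal windows and 5′ ends was 0.672 (exact permutation test, p = 0.421). Among windows selected for a peak in all 10 lists (934 internal windows and 2191 5′ ends) the rank score of internal windows minus that of 5′ ends was higher in *Tip60* cKO libraries by 1.27, in 5 of 5 libraries above every control library (exact permutation test, p = 0.00794, adjusted p = 0.0496). The median pileup of internal windows as a percentage of that at 5′ ends was higher by 5.36 percentage points (exact permutation test, p = 0.00794, adjusted p = 0.0496). Without *Tip60* cKO library 5 these differences were 1.13 and 4.47 (exact p = 0.0159 for each), which would not pass the adjustment, although the groups still did not overlap. For the median fold enrichment the same percentage was higher by 5.41 points (exact permutation test, p = 0.0317, adjusted p = 0.113). The selection uses the measured peaks of both genotypes and leaves out windows that lost a peak in any library. Internal windows lie nearer to the weakest peaks (66.5 to 73.4), with a median of 84.2 in control libraries, than 5′ ends with 90.1, and without the selection 1142 of 2349 internal windows had the higher mean in *Tip60* cKO libraries. The part of the selection in these differences was not tested. The adjusted p of 0.0496 is reached only because several such measures of the same windows tie at the smallest p of the exact test. The measures were chosen after the data had been seen, and in *Tip60* cKO libraries 45.3 to 57.8% of peaks were measured against the genome-wide background compared with 27.4 to 34.5% in control libraries, whose part in the difference was not tested.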

How the results depend on the processing

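Differences between and within libraries that changed direction or their side of an unadjusted p of 0.05 are given first. Without *Tip60* cKO library 5 the genotype difference in the rank score of internal windows reversed to 0.0853 (range without single libraries −1.80 to 0.0853). The genotype difference in summit distance passed the threshold in windows of 0.5 kb (−17.2 bp) and without *Tip60* cKO library 4 (−17.0 bp, range without single libraries −17.0 to −11.1). The genotype difference in the share of internal windows minus 5′ ends (0.262) reversed without control library 4 or *Tip60* cKO library 1 or 3 (range without single libraries −0.346 to 0.765). Without single libraries the genotype difference was −1.41 to 0.486 in rank score of CpG-poor internal windows, −1.75 to 0.530 in that of windows with incomplete starts (both above 0 without *Tip60* cKO library 5) and −0.916 to 1.69 percentage points in internal coverage relative to 5′ ends. That in peak coverage kept its sign but was −2.54 to −0.998 without single libraries. With equal numbers of peaks the genotype difference in rank score between CpG-rich and CpG-poor windows was −2.20 (exact permutation test, p = 0.0317), where the main value was −1.21 (exact p = 0.238) and −1.76 to −0.686 without single libraries (exact p = 0.0873 to 0.484). With 5 control libraries alone, where the exact sign-flip test cannot go below 0.0625, the share in internal windows minus 5′ ends was −35.5 and the excess of coverage at internal TSSs 13.5. Windows with a peak in at least 4 more control lists numbered 22 with complete starts only and 1 to 66 without single libraries. For at least 4 more *Tip60* cKO lists the counts were 13 in windows of 2 kb, 17 with the same number of peaks, 4 with complete starts only and 3 to 15 without single libraries. Lower calls of limma numbered 1 with q below 0.01, with the lane as a term and with windows in at least 1 list, each time *Mbnl1*, and 0 to 2 without single libraries. Higher calls numbered 0 in windows of 0.5 kb, 1 in windows of 2 kb, with the same number of peaks, with complete starts only, with ranking by pileup and over merged peak regions, and 0 to 2 without single libraries. The cause of these shifts was not tested, except that fewer windows enter with complete starts only, and that leaving out a library of the group with more peaks makes the rule of at least 4 more lists stricter. Same-numbered libraries did not deviate together (correlations of −0.0480 to 0.0221, and 0 libraries correlated best with their own number), and with a replicate block limma called 0 internal windows higher and 7 instead of 98 windows in all (adjusted p-values of limma 0.0692 for *Tead2* and 0.0732 for *Klf13*). The call of *Tead2* was lost in 10 of 20 other settings and that of *Klf13* in 13 of 21, and 5 settings of the other 17 named windows with a genotype difference gained a call. Without single libraries the exact p of genotype differences at 5′ ends was 0.0317 to 0.238 for the share with a peak, 0.0317 to 0.175 for the rank score and 0.0159 to 0.0714 for pileup, and it was 0.0238 to 0.175 for pileup of internal windows and 0.0238 to 0.0556 for fold enrichment relative to 5′ ends. The adjusted calls (0.0496) rest on several added measures with a tie at the smallest p of the exact test. They would be lost at exact p = 0.0159 without control library 3 or 4 or *Tip60* cKO library 5 (rank score of internal windows minus 5′ ends), without any one *Tip60* cKO library (pileup ratio) and without control library 1 or 3 (fold enrichment at 5′ ends), and for the rank score of internal windows with a peak in all 10 lists the exact p was up to 0.0476. In the 1.27 difference between internal windows and 5′ ends the range over alternatives was 0.714 (ranking by pileup) to 1.55. Depth limits what can be seen, since windows under the threshold of a shallow library score 0.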
